A study of Mus musculus with 17 samples.

Results

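DNA replication and S-phase genes were followed in the thymus of Tcf1-deficient mice with and without a thymic lymphoma. The 52 genes were listed by their function, at a time when earlier results of these data were known. They comprise the proteins that mark and license replication origins, the replicative helicase, the polymerases with their clamp, the enzymes that make deoxynucleotides and the regulators that open S phase. A gene was read from probe sets annotated to it alone, and where several were on the array the brightest of them, by its mean over the 17 arrays, stood for it. Of the 52 genes, 51 had such a probe set and all 51 lay above the filter on low signal, among 13755 of 18193 genes. Chaf1a was not analysed here.

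RNA from C57Bl/6 mice was hybridised to Affymetrix arrays, 1 mouse per array. The labels name homogenized thymus as its source, while the study's methods name thymocytes, so it is not settled which cells of the thymus the samples held. The groups were 8 thymic lymphomas of Tcf1-/- ΔVII/ΔVII mice, 4 tumor-free thymi of Tcf1-/- ΔVII/ΔVII mice, and 5 thymi of Tcf1+/- wt/ΔVII mice, which served as controls. The controls thus also carried a ΔVII allele, and no mouse was free of it. Tcf1 is the T-cell factor that carries Wnt signals to the nucleus of thymocytes, and the study described the tumor-free Tcf1-/- mice as being of similar age to those with one. Ages are not given by the labels, the targeted gene was not analysed here, and each lymphoma is a tumor of its own. A thymus holds many cell types, and fewer cells of a type and less RNA per cell cannot be told apart in these values.

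In late mitosis and G1, the origin recognition complex, Cdc6 and Cdt1 load the MCM2-7 helicase onto origins, and geminin (Gmnn) blocks a further round of loading. Cyclin E with its kinase and the E2F transcription factors then start S phase, in which Cdc45 and the GINS complex switch the helicase on and the polymerases copy both strands. In a normal thymus most of this activity lies in immature thymocytes that proliferate after they have rearranged their T-cell receptor beta chain, while the abundant CD4+CD8+ thymocytes are mostly at rest.

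Many of these genes are known targets of E2F, and their promoters were therefore searched for its motif (TTTCGCGC, TTTGGCGC, TTTCCCGC or TTTGCCGC on either strand, overlaps allowed). The window ran from 250 bases before to 50 bases after each annotated start (RefSeq, GRCm38.p6). Of 44 listed genes with a window, 18 (40.9%) held the motif, as did 14 of 36 other replication genes (38.9%), 1 of 31 mitosis and spindle genes (3.23%) and 704 of all 27025 genes with a window (2.6%). The share is a description of these windows. Mcm6, a subunit of the helicase, held 3 copies, all before the start, and its 250 bases before the start (chr1:128359706-128359955, minus strand) are shown with the motifs in capitals, where the first pair overlaps.
Mcm6: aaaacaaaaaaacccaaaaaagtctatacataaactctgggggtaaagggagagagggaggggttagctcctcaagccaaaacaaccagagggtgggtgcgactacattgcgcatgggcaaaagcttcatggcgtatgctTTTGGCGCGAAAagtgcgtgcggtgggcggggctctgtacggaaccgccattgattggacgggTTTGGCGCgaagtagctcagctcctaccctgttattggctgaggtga

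The other members that held the motif and differed between lymphomas and Tcf1+/- thymi are shown by the bases around their first copy, again with the motif in capitals. In Brca2 (chr5:150522443-150522470, plus strand) it began 168 bases before the start. Lig1 has 3 windows and E2f2 has 2, and the start meant below is that of the window with the motif. Their other windows did not hold the motif. In Mcm3 (chr1:20820276-20820303, minus strand), Lig1 (chr7:13278842-13278869, plus strand), Pold1 (chr7:44548766-44548786, minus strand) and E2f2 (chr4:136172303-136172323, plus strand) it began 19, 26, 39 and 39 bases after the start.
Brca2: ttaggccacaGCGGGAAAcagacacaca
Mcm3: aacttccgtgGCGGGAAAacttgggaag
Lig1: gccaaagtgcGCGCGAAAtctgtgtggc
Pold1: gtatcttgtgGCGGGAAAagc
E2f2: cggcatatagTTTGGCGCtaa

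Brca2, Mcm3 and Pold1 carried the same 8 letters. The members with the motif did not move one way, since E2f2 was lower in lymphomas than in Tcf1+/- thymi while Mcm6, Mcm3, Brca2, Lig1 and Pold1 were higher. Among the 10 members with a window that were higher in that comparison 5 held the motif, and 12 of the 32 with a window that were not called did.

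The arrays themselves differed in ways that touch these genes. The arrays of lymphomas 1 and 2 and of Tcf1+/- mice 1 and 2 stood apart from the other 13, with an interquartile range of log2 signal of 2.93 to 3.06 against 3.49 to 3.75, and with a difference between 3' and 5' Gapdh probe sets of 1.12 to 2.63 against -0.13 to 0.96. None of the 4 tumor-free Tcf1-/- thymi was among them. Within the 4 arrays the Gapdh difference was 2.63 and 2.33 in lymphomas and 1.61 and 1.12 in Tcf1+/- thymi. Among the others it was -0.03 to 0.96 in lymphomas, 0.14 to 0.39 in tumor-free Tcf1-/- thymi and -0.13 to 0.26 in Tcf1+/- thymi. It thus also differed between groups within the array sets, with overlap among the others. Markers of CD4+CD8+ thymocytes were lower in tumor-free Tcf1-/- thymi than in Tcf1+/- thymi for all 9 measured, and in lymphomas than in Tcf1+/- thymi for 7 of 9. Cd4 lay at 7.08 to 10.87 in lymphomas, 8.42 to 9.28 in tumor-free Tcf1-/- thymi and 11.04 to 11.61 in Tcf1+/- thymi. Macrophage markers (11 of 12) and B-cell markers (8 of 9) were higher in tumor-free Tcf1-/- thymi than in Tcf1+/- thymi. The macrophage marker C1qa and the B-cell marker Ms4a1 lay above the arrays' median signal of 5.23 to 5.47 in every mouse, their lowest values being 6.98 and 6.4 in lymphomas, 10.8 and 11.42 in tumor-free Tcf1-/- thymi, and 8.27 and 6.78 in Tcf1+/- thymi. The part of these differences in the results below was not tested.

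**Figure D1:**
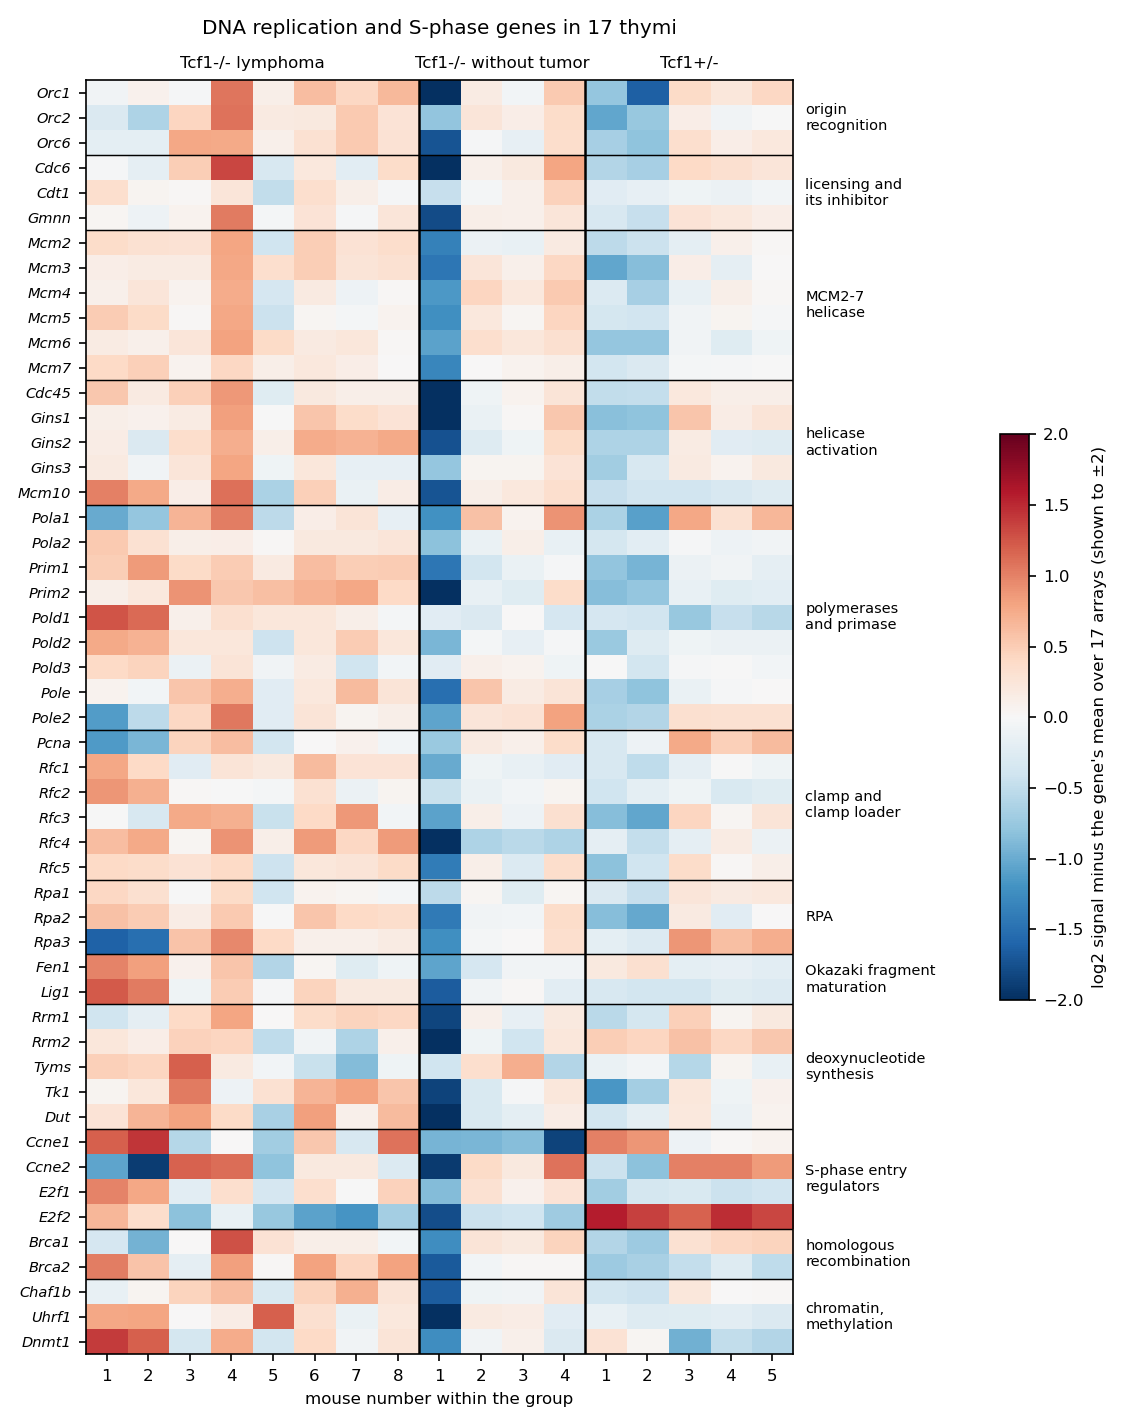
Log2 signal of the 51 measured DNA replication and S-phase genes (rows, grouped by role) in the 17 mice (columns), as the difference from each gene's mean over the 17 arrays, red for higher and blue for lower. The first tumor-free Tcf1-/- mouse is the lowest of all 17 for 42 of the genes, and E2f2 is higher in each of the 5 Tcf1+/- mice than in any other mouse.

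Taken as a mean over the 51 genes, each set to its own mean over the 17 arrays, the lymphomas were at -0.12, 0.23 and 0.61 (lowest, median and highest) on the log2 scale. The tumor-free Tcf1-/- thymi were at -1.36, 0.01, -0.01 and 0.16, and the Tcf1+/- thymi at -0.42, -0.43, 0.1, 0.04 and 0.07. Lymphoma 5 was the lowest tumor and lymphoma 4 the highest, and the groups overlapped.

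The group means were 0.23 ± 0.2 in lymphomas (SD, n = 8), -0.3 ± 0.71 in tumor-free Tcf1-/- thymi (n = 4) and -0.13 ± 0.27 in Tcf1+/- thymi (n = 5). Lymphomas were thus 0.53 above tumor-free Tcf1-/- thymi and 0.36 above Tcf1+/- thymi, and tumor-free Tcf1-/- thymi were 0.18 below Tcf1+/- thymi. Each of these differences rested in part on few arrays. Without Tcf1-/- mouse 1 the first was 0.18 and the last turned to 0.18 above. That turn also rests on Tcf1+/- mice 1 and 2, at -0.42 and -0.43, whose arrays stood apart. The difference between lymphomas and Tcf1+/- thymi was 0.65 within the 4 arrays that stood apart and 0.16 within the other arrays. The difference of tumor-free Tcf1-/- from Tcf1+/- thymi was -0.44 with equal interquartile ranges and -0.37 without the 4 arrays.

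The mean of 34 mitosis and spindle genes was 0.11 ± 0.37 in lymphomas, -0.49 ± 1.02 in tumor-free Tcf1-/- thymi and 0.22 ± 0.35 in Tcf1+/- thymi (SD). It was -2.03 in Tcf1-/- mouse 1 and -0.05 to 0.09 in the other 3 tumor-free Tcf1-/- thymi. Without that mouse the mean of this group was 0.02, which is 0.2 below Tcf1+/- thymi, where it had been 0.71 below with it. Lymphomas were 0.11 below Tcf1+/- thymi on this mean, and they were below them within the 4 arrays (-0.18) and within the others (-0.21). The S-phase mean differed in the other direction in each of these sets.

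**Figure D2:**
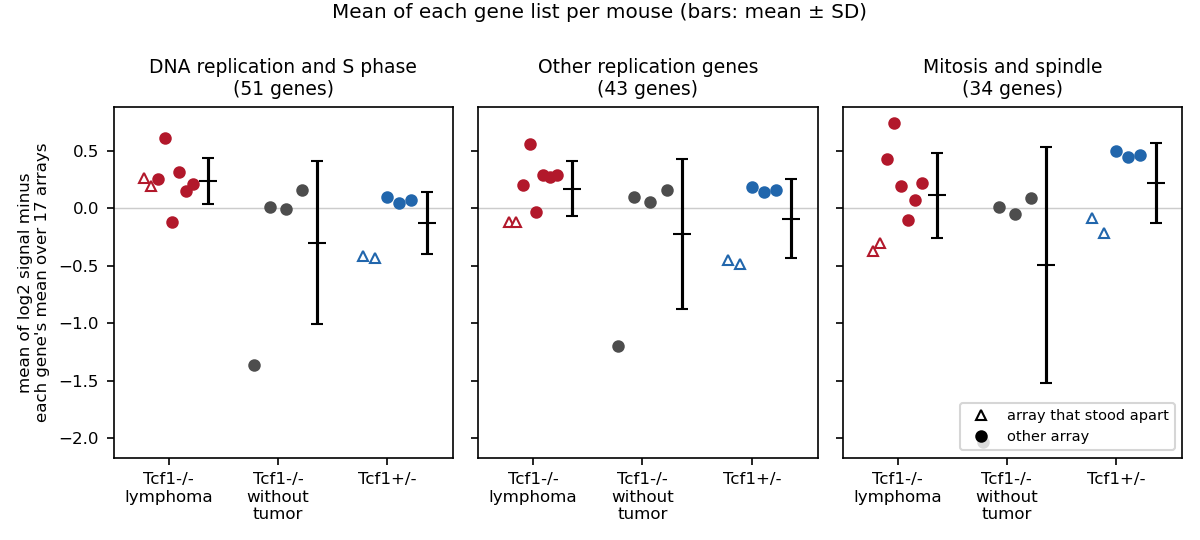
Mean per mouse of 3 gene lists, as log2 signal minus each gene's mean over the 17 arrays, with bars for the group mean and SD and open triangles for the 4 arrays that stood apart. Lymphomas lie at -0.12 to 0.61 for the DNA replication and S-phase genes, and Tcf1-/- mouse 1 lies at -1.36, far below the other 16 mice.

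Tcf1-/- mouse 1 lay below the mean of the other 3 tumor-free Tcf1-/- thymi for 50 of 51 genes. The differences ran from -2.82 to 0.27 with a median of -1.46, against a median of -0.04 over all genes tested. It was the lowest of the 17 arrays for 42 members, while it was so for 14.4% of all genes tested. The drop was deepest for Cdc6 (-2.82), which loads the helicase, and was absent for Pold1 (-0.01), while Ccne1 was 0.27 higher. This mouse also had the highest mean of the macrophage (2.83), B-cell (3.55) and NK-cell (2.25) markers among the 17, where the other tumor-free Tcf1-/- thymi had 0.97 to 2.02, 1.63 to 2.43 and 1 to 1.8. Their part in the drop was not tested. These counts and ranks were made after this mouse had been seen to differ. With it left out, the SD among tumor-free Tcf1-/- thymi had a median of 0.19 over the members, against 0.77 with it, and 0.2 against 0.26 over all genes tested.

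The comparison of lymphomas with Tcf1+/- thymi asks how tumors differ from thymi with a working Tcf1 allele. Of the 51 members, 12 (23.5%) rose and 1 (1.96%) fell at an adjusted p under 0.05 with limma, against 8.51% and 4.21% of all genes tested. The genes that rose were subunits of primase (Prim1, Prim2), polymerase delta (Pold1), the clamp loader (Rfc1, Rfc4), the helicase (Mcm3, Mcm6) and its activator (Gins2), with Rpa2, Lig1, E2f1 and Brca2. E2f2 fell. The median difference was 0.43 over the members and 0.06 over all genes, and 44 of 51 members were higher in lymphomas.

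In 9 members (17.6%), every lymphoma lay above every Tcf1+/- thymus, which was so for 4.78% of all genes tested. They were Mcm6, Mcm7, Pola2, Prim1, Prim2, Pold1, Lig1, Brca2 and Uhrf1. Mcm7, Pola2 and Uhrf1 missed the threshold.

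The count of members that passed moved with the array sets. It was 24 (21 higher, 3 lower) with the array set as a block, which is 47.1% of members, against 27.3% of all genes. Without the 4 arrays that stood apart it was 6 (5 higher, 1 lower), which is 11.8% of members and near the 11.4% of all genes called in that fit (1573, with 5.44% higher and 6% lower), and the median over the members was 0.21. The 6 were Brca2, Gins2, Pold1, Prim1 and Prim2 higher and E2f2 lower. All 6 were also among the 13. Within the 4 arrays alone, with the spread of 2 against 2 mice, 30 members (58.8%) passed, against 20.9% of all genes. Neither this fit nor the array set as a block takes out the Gapdh difference between groups inside a set. With the mouse number as a block, over the 5 numbers both groups share, 8 passed (7 higher, 1 lower), or 15.7% against 13% of all genes. They are Prim1, Prim2, Pold1, Mcm6, Brca2 and E2f2 of the 13 together with Uhrf1 and Dnmt1. On the same mice without the block 5 passed (9.8%), against 4.99% of all genes.

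Single mice also moved the count, which was 6, 5 and 8 without Tcf1+/- mouse 1, 2 or 4 and 8 without lymphoma 6. Without Tcf1+/- mouse 1 or 2 this was 11.8% and 9.8% of members, near the 9.44% and 9.19% of all genes. Without Tcf1+/- mouse 4 or lymphoma 6 it was 15.7% of members each time, against 8.98% and 9.65% of all genes. With each of the 13 mice left out in turn, E2f2, Brca2, Prim1 and Prim2 passed every time. Pold1 and Rfc4 passed 12 times, Mcm6 and Rpa2 11 times, Lig1 7, Mcm3 6, Gins2 5, E2f1 4 and Rfc1 2 times.

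Lymphomas against tumor-free Tcf1-/- thymi set the tumors beside thymi of the same genotype. Of the 51 members, 4 rose (7.84%) and 0 fell, against 6.34% and 8.35% of all genes tested, so that the share that rose was near the background. Over all genes 872 rose and 1148 fell, and 1237 rose and 1028 fell once the interquartile range of every array was made equal, so the balance of directions depends on the scaling. At an unadjusted p under 0.05, 16 were higher and 0 lower, against 16.1% and 13.4% of all genes. Over both directions this was 31.4% of members and 29.5% of all genes. The 4 that passed the adjusted threshold were Rfc4, Ccne1, Prim1 and Rfc1. The median difference was 0.55 over the members and 0.1 over all genes, and 47 members were higher in lymphomas. Without Tcf1-/- mouse 1 the median over the members was 0.16 (0.07 over all genes) and 36 were higher. In that fit 6 members had an unadjusted p under 0.05 (limma), or 11.8%, below the 21.1% of all genes. Rfc4 and Prim1 still passed without this mouse (3.92% of members, against 7.37% of all genes). Also 2 members (3.92%) passed without Tcf1-/- mouse 2 or 3 or without lymphoma 6 or 8, against 9.24%, 9.97%, 12.1% and 11.6% of all genes. With each of the 12 mice left out in turn, Rfc4 and Prim1 passed every time, Ccne1 6 times and Rfc1 once.

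Tumor-free Tcf1-/- thymi against Tcf1+/- thymi ask what loss of the second allele does before a tumor is seen. No member rose and 2 (3.92%) fell, E2f2 and Ccne1, against 10.1% and 4.7% of all genes tested. At an unadjusted p under 0.05, 0 were higher and 4 lower (7.84% over both directions), against 16% and 9.85% of all genes (25.9%). The median was -0.09 over the members and -0.01 over all genes, and 19 of 51 members were higher in tumor-free Tcf1-/- thymi. The sign of this median depended on few mice. Without Tcf1-/- mouse 1 it was 0.25 and 42 members were higher. That rise includes Tcf1+/- mice 1 and 2, on arrays that stood apart, with member means of -0.42 and -0.43. The means of the other Tcf1+/- thymi (0.1, 0.04 and 0.07) overlapped with those of Tcf1-/- mice 2, 3 and 4 (0.01, -0.01 and 0.16). With the interquartile ranges of the arrays made equal it was -0.38 and 4 members were higher, against a median of -0.14 over all genes. Over all genes 1390 rose and 647 fell, and 1190 rose and 943 fell with equal interquartile ranges. Without Tcf1-/- mouse 1, 3 members were also higher, E2f1 (0.66), Mcm10 (0.59) and Brca2 (0.52), with E2f2 and Ccne1 still lower, in all 9.8% of members, against 13.8% of all genes. E2f2 and Ccne1 passed whichever of the 9 mice was left out. The 3 comparisons share samples, so their values are given side by side and not as separate evidence.

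**Figure D3:**
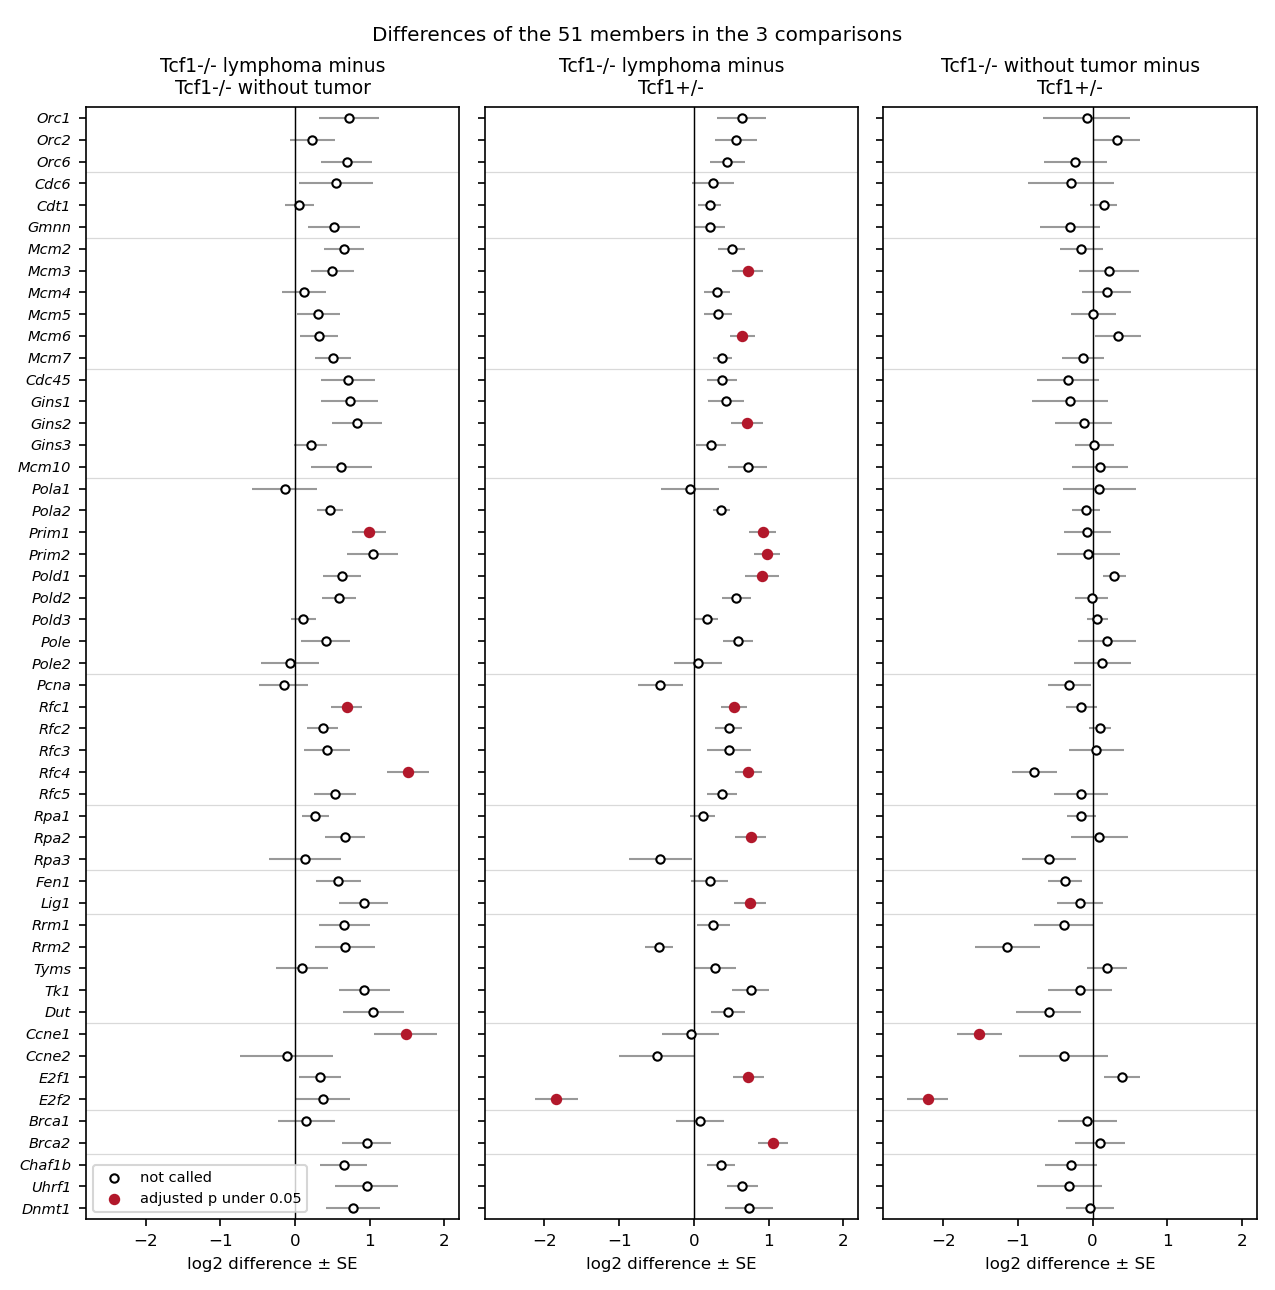
Log2 difference of each of the 51 members in the 3 comparisons, with the standard error from limma as bars and filled points for an adjusted p under 0.05. Most points lie right of 0 in the comparisons of lymphomas, and E2f2 lies at -1.84 in lymphomas and -2.21 in tumor-free Tcf1-/- thymi, each against Tcf1+/- thymi.

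The origin recognition complex marks origins, and none of its 3 measured subunits passed in the main fit of any comparison. That fit is limma on the deposited values, with all mice of both groups and 1 probe set per gene. From here on, passed refers to it unless another fit is named. Orc6, its member with the strongest signal, was at 9.31, 9.8 and 10.28 in lymphomas (lowest, median and highest), at 7.78, 9.48, 9.34 and 9.86 in tumor-free Tcf1-/- thymi, and at 8.84, 8.71, 9.84, 9.64 and 9.72 in Tcf1+/- thymi. The groups overlapped, and lymphomas were 0.69 ± 0.35 (SE) above tumor-free Tcf1-/- thymi and 0.45 ± 0.24 above Tcf1+/- thymi (adjusted p = 0.194 and 0.272, limma). Orc1, the largest subunit, was as low as 5.38 in Tcf1-/- mouse 1 and 5.84 in Tcf1+/- mouse 2, against 7.4 or more in every lymphoma.

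Licensing factors did not pass either. Cdt1, which brings the helicase to the origin, was at 11.69, 12.27 and 12.52 in lymphomas (lowest, median, highest), at 11.72, 12.14, 12.28 and 12.65 in tumor-free Tcf1-/- thymi, and at 11.96, 12.01, 12.09, 12.06 and 12.13 in Tcf1+/- thymi. These ranges overlapped. Cdc6, its partner, was at 7.29 in Tcf1-/- mouse 1, against 9.43 to 11.08 in lymphomas, 9.85 to 10.53 in the other tumor-free Tcf1-/- thymi and 9.08 to 10.15 in Tcf1+/- thymi. Gmnn, the inhibitor of Cdt1, differed by 0.22 between lymphomas and Tcf1+/- thymi (adjusted p = 0.576).

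All 6 subunits of the MCM2-7 helicase were higher in lymphomas than in Tcf1+/- thymi, by 0.31 to 0.72, and 2 of them passed. Mcm6 was at 12.64, 12.82 and 13.41 in lymphomas (lowest, median, highest), at 11.54, 12.94, 12.84 and 12.93 in tumor-free Tcf1-/- thymi, and at 11.84, 11.84, 12.54, 12.37 and 12.53 in Tcf1+/- thymi. Every lymphoma exceeded every Tcf1+/- thymus, by 0.65 ± 0.17 on average (adjusted p = 0.0238), while 3 of the 4 tumor-free Tcf1-/- thymi lay among the lymphomas. Mcm3 rose by 0.72 ± 0.21 (adjusted p = 0.035), with 7 of 8 lymphomas above all controls.

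Mcm7, with the strongest signal of the 6, was at 13.26, 13.42 and 13.72 in lymphomas, at 11.94, 13.25, 13.32 and 13.37 in tumor-free Tcf1-/- thymi, and at 12.88, 12.96, 13.2, 13.22 and 13.23 in Tcf1+/- thymi. Lymphomas and Tcf1+/- thymi did not overlap, yet they lay only 0.03 apart at the nearest pair, and the difference of 0.38 ± 0.13 missed the threshold (adjusted p = 0.0743). Against tumor-free Tcf1-/- thymi the 6 subunits differed by 0.12 to 0.66 and 0 passed.

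Of the genes that switch the helicase on, Gins2 rose in lymphomas against Tcf1+/- thymi by 0.71 ± 0.21 (adjusted p = 0.0378) and the other 4 did not pass. Gins1, the member of this group with the strongest signal, was at 9.75, 9.98 and 10.58 in lymphomas, at 7.62, 9.62, 9.78 and 10.29 in tumor-free Tcf1-/- thymi, and at 8.93, 8.96, 10.31, 9.9 and 10.02 in Tcf1+/- thymi. The 2 lowest controls were the arrays that stood apart, and the remaining 3 lay within the range of the tumors. Mcm10, which also helps to open the helicase, was 0.72 ± 0.25 higher in lymphomas (adjusted p = 0.0848).

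Primase lays down the RNA primers of each new strand, and both of its subunits rose in lymphomas against Tcf1+/- thymi. Prim1, the catalytic subunit, was at 10.77, 11.1 and 11.45 in lymphomas (lowest, median, highest), at 9.15, 10.23, 10.47 and 10.57 in tumor-free Tcf1-/- thymi, and at 9.81, 9.66, 10.48, 10.53 and 10.42 in Tcf1+/- thymi. Every lymphoma exceeded every mouse of the other groups. It was the only member besides Rfc4 and Rfc1 to pass in each comparison of lymphomas, rising by 0.99 ± 0.23 (adjusted p = 0.0133) against tumor-free Tcf1-/- thymi and by 0.92 ± 0.18 (adjusted p = 0.00417) against Tcf1+/- thymi. A further probe set of Prim1 differed by 0.43 and 0.35, the same direction at less than the size. With the mean of its probe sets Prim1 passed in neither comparison.

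Prim2, the large subunit, was at 9.63, 10.08 and 10.4 in lymphomas, at 7.5, 9.36, 9.27 and 9.88 in tumor-free Tcf1-/- thymi, and at 8.66, 8.73, 9.35, 9.26 and 9.29 in Tcf1+/- thymi. Lymphomas and Tcf1+/- thymi did not overlap (0.98 ± 0.18, adjusted p = 0.00308), while Tcf1-/- mouse 4 lay within the range of the tumors (1.04 ± 0.34, adjusted p = 0.0604). The partners of primase in polymerase alpha did not pass: Pola1 differed from Tcf1+/- thymi by -0.05 ± 0.39 and Pola2 by 0.37 (adjusted p = 0.964 and 0.0592).

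Pold1, the catalytic subunit of polymerase delta, was at 11.09, 11.36 and 12.39 in lymphomas, at 10.91, 10.85, 11.14 and 10.79 in tumor-free Tcf1-/- thymi, and at 10.79, 10.75, 10.38, 10.68 and 10.58 in Tcf1+/- thymi. The tumors on the arrays that stood apart were the highest, at 12.39 and 12.27. Lymphomas rose by 0.91 ± 0.23 against Tcf1+/- thymi (adjusted p = 0.0168), by 1.56 within the 4 arrays and by 0.74 without them. Pold2 and Pold3, other subunits, and Pole and Pole2 of polymerase epsilon did not pass, with differences of 0.06 to 0.59.

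Replication factor C loads the sliding clamp, and Rfc4 and Rfc1 were the subunits that rose. Rfc4 was at 10.09, 10.73 and 10.95 in lymphomas, at 8.05, 9.44, 9.51 and 9.43 in tumor-free Tcf1-/- thymi, and at 9.87, 9.57, 9.87, 10.21 and 9.94 in Tcf1+/- thymi. All lymphomas exceeded all tumor-free Tcf1-/- thymi, also apart from the low mouse 1, by 1.51 ± 0.28 (adjusted p = 0.00288), which was the highest difference of a member in that comparison. Against Tcf1+/- thymi they overlapped (0.73 ± 0.18, adjusted p = 0.0175). The Rfc4 probe set has a suffix that marks probes shared between transcripts. Among the called members, those of Mcm3, Gins2, Pold1 and Ccne1 carry such a suffix too. A further Rfc4 probe set differed by 0.62 and 0.22.

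Rfc1, the large subunit, was at 9.28, 9.77 and 10.27 in lymphomas, at 8.5, 9.42, 9.36 and 9.27 in tumor-free Tcf1-/- thymi, and at 9.19, 8.99, 9.32, 9.49 and 9.42 in Tcf1+/- thymi. Lymphoma 3 overlapped with the other groups. The differences were 0.69 ± 0.21 and 0.54 ± 0.17 (adjusted p = 0.0454 and 0.0452), and a further of its 3 probe sets was lower in lymphomas, by 0.27 and 0.12, so that its direction depends on the probe set.

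The clamp itself, Pcna, had the strongest signal of all members and did not pass. It was at 12.47, 13.57 and 14.21 in lymphomas, at 12.86, 13.77, 13.7 and 13.97 in tumor-free Tcf1-/- thymi, and at 13.27, 13.49, 14.35, 14.07 and 14.23 in Tcf1+/- thymi. Lymphomas were 0.45 ± 0.3 below Tcf1+/- thymi (adjusted p = 0.398), by 0.81 within the 4 arrays that stood apart and 0.5 within the others. With the array set as a block Pcna passed as lower, by 0.61 (adjusted p = 0.0134).

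RPA coats single-stranded DNA, and 1 of its 3 subunits passed, in the comparison of lymphomas with Tcf1+/- thymi. Rpa1, the large subunit, was at 12.29, 12.74 and 13.1 in lymphomas, at 12.16, 12.72, 12.44 and 12.72 in tumor-free Tcf1-/- thymi, and at 12.4, 12.23, 12.92, 12.87 and 12.9 in Tcf1+/- thymi. These ranges overlapped. Rpa2 rose by 0.76 ± 0.21 against Tcf1+/- thymi (adjusted p = 0.0252, limma). The difference was 1.48 within the 4 arrays and 0.34 without them, where it did not pass. A further Rpa2 probe set differed by -0.13 from Tcf1+/- thymi and by -0.54 from tumor-free Tcf1-/- thymi, so that its direction depends on the probe set. Rpa3 was 0.45 ± 0.42 lower (adjusted p = 0.592), with 9.13 and 9.24 in lymphomas 1 and 2 against 10.84 to 11.7 in the other lymphomas and 10.47 to 11.63 in Tcf1+/- thymi.

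Fen1 and Lig1 trim and join Okazaki fragments. Fen1 was at 11.39, 12.04 and 12.97 in lymphomas, at 10.93, 11.64, 11.91 and 11.91 in tumor-free Tcf1-/- thymi, and at 12.18, 12.3, 11.78, 11.81 and 11.76 in Tcf1+/- thymi. It did not pass, with lymphomas both above and below the controls. Lig1 rose against Tcf1+/- thymi by 0.75 ± 0.21 (adjusted p = 0.0339) and every lymphoma, at 11.04 to 12.34, exceeded every control, at 10.75 to 10.88. Its difference was 1.47 within the 4 arrays, and without them it did not pass.

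Among the enzymes of deoxynucleotide synthesis, 0 of 5 passed in the main fit of any comparison, while Dut, Tk1 and Rrm2 passed in other fits. Rrm2, the subunit of ribonucleotide reductase whose level follows S phase, was at 11.86, 12.6 and 12.93 in lymphomas, at 10.12, 12.39, 12.08 and 12.71 in tumor-free Tcf1-/- thymi, and at 12.97, 12.9, 13.06, 12.89 and 13.01 in Tcf1+/- thymi. The 5 controls were close together, and all 4 tumor-free Tcf1-/- thymi and 6 of 8 lymphomas lay below the lowest of them. The differences from Tcf1+/- thymi were -0.47 ± 0.19 in lymphomas and -1.14 ± 0.44 in tumor-free Tcf1-/- thymi (adjusted p = 0.128 and 0.124). After subtracting Abl1, Rrm2 passed as lower in tumor-free Tcf1-/- thymi.

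Tk1, which salvages thymidine, lay 0.76 ± 0.25 above Tcf1+/- thymi in lymphomas (adjusted p = 0.0664). With equal interquartile ranges Tk1 passed as higher in both comparisons of lymphomas, and with the array set as a block against Tcf1+/- thymi. Dut, which removes dUTP, was 0.46 higher (adjusted p = 0.227). A further Dut probe set differed by 1.45, and by 1.73 from tumor-free Tcf1-/- thymi. With the mean of all probe sets Dut passed in both comparisons of lymphomas. Tyms, which makes thymidylate, was read from a dim probe set at 4.34 to 6.4 in all groups, around the arrays' median signal of 5.23 to 5.47, so that little can be read from it. A brighter probe set that it shares with a pseudogene was not used.

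The regulators of S-phase entry held the members that fell. E2f2, an activator E2F, was at 8.14, 8.59 and 9.98 in lymphomas (lowest, median, highest), at 7.54, 8.89, 8.92 and 8.61 in tumor-free Tcf1-/- thymi, and at 10.89, 10.68, 10.5, 10.79 and 10.65 in Tcf1+/- thymi. Every Tcf1-/- sample, with or without a tumor, lay below every Tcf1+/- sample. It fell by 1.84 ± 0.29 in lymphomas (adjusted p = 0.00125) and by 2.21 ± 0.27 in tumor-free Tcf1-/- thymi (adjusted p = 0.000557), which is 3.59-fold and 4.63-fold lower than in Tcf1+/- thymi.

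A further E2f2 probe set differed by -1.93 and -2.19. Between lymphomas and tumor-free Tcf1-/- thymi E2f2 differed by 0.37 (adjusted p = 0.548). It fell within the 4 arrays that stood apart (-0.96) and without them (-2.11). Between Tcf1-/- and Tcf1+/- samples the lower E2f2 signal went with lower CD4+CD8+ thymocyte markers. Their mean was -1.45 to 0.44 in lymphomas, -0.84 to -0.16 in tumor-free Tcf1-/- thymi and 0.97 to 1.5 in Tcf1+/- thymi, likewise without overlap between the genotypes. Among lymphomas the order differed. Lymphomas 1 and 2, on arrays that stood apart, had the lowest marker means (-1.24 and -1.45) and the highest E2f2 (9.98 and 9.66), while lymphoma 7 was low on both (-1.08 and 8.14). The part of these markers in the E2f2 difference was not tested.

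E2f1, another activator E2F, went the other way in lymphomas. It was at 7.63, 8.29 and 8.96 in lymphomas, at 7.09, 8.27, 8.05 and 8.24 in tumor-free Tcf1-/- thymi, and at 7.26, 7.61, 7.66, 7.53 and 7.58 in Tcf1+/- thymi. Lymphomas rose by 0.73 ± 0.21 (adjusted p = 0.0379), with 7 of 8 above all controls. The tumors on the arrays that stood apart were highest, and without those arrays E2f1 did not pass.

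Ccne1, cyclin E1, was at 7.87, 8.85 and 9.99 in lymphomas, at 7.63, 7.65, 7.71 and 6.71 in tumor-free Tcf1-/- thymi, and at 9.58, 9.44, 8.46, 8.59 and 8.63 in Tcf1+/- thymi. All 4 tumor-free Tcf1-/- thymi lay below all other mice. They fell by 1.52 ± 0.3 against Tcf1+/- thymi (adjusted p = 0.00728, 2.86-fold), and lymphomas were 1.48 ± 0.42 above them (adjusted p = 0.0302) and within 0.04 of Tcf1+/- thymi (adjusted p = 0.973). A further Ccne1 probe set gave -1.21, 1.15 and -0.06. Unlike most members, Ccne1 was not lowest in Tcf1-/- mouse 1.

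Ccne2, cyclin E2, was at 7.01, 8.86 and 10.09 in lymphomas, at 6.99, 9.29, 9.1 and 9.99 in tumor-free Tcf1-/- thymi, and at 8.48, 8.09, 9.92, 9.91 and 9.76 in Tcf1+/- thymi. It passed in no comparison. The low values of lymphomas 1 and 2 and of controls 1 and 2 were those of the arrays that stood apart, where Ccne1 was high. E2f1 and Ccne2 were given in full after their values had been seen, beside their family members.

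**Figure D4:**
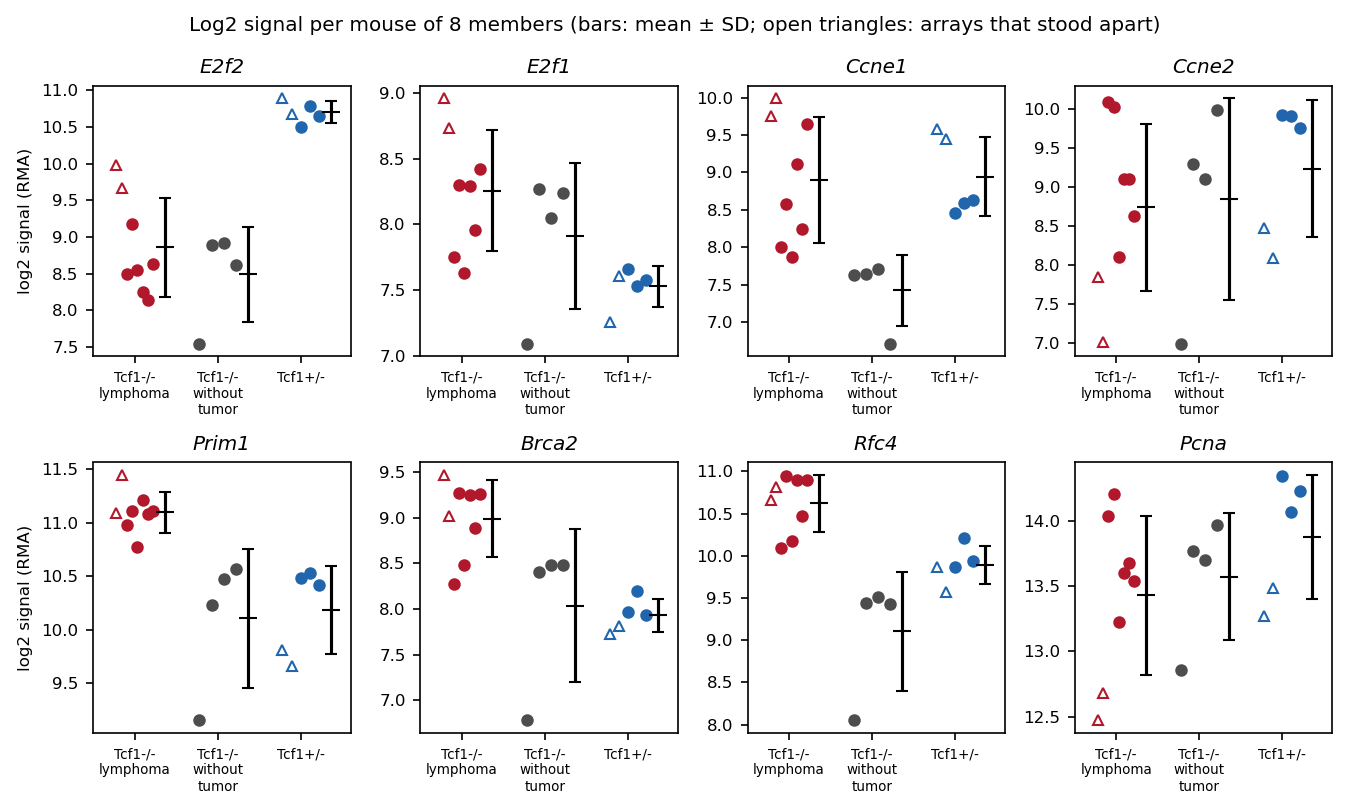
Log2 signal of 8 members in each mouse, with bars for the group mean and SD and open triangles for the 4 arrays that stood apart. E2f2 separates the 5 Tcf1+/- mice (10.5 to 10.89) from all 12 Tcf1-/- mice (7.54 to 9.98), Ccne1 is lowest in the 4 tumor-free Tcf1-/- thymi (6.71 to 7.71), and Prim1 is highest in the 8 lymphomas (10.77 to 11.45).

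Brca2, which loads the recombinase at broken forks, was at 8.27, 9.14 and 9.47 in lymphomas, at 6.78, 8.4, 8.48 and 8.48 in tumor-free Tcf1-/- thymi, and at 7.73, 7.81, 7.97, 8.2 and 7.94 in Tcf1+/- thymi. All lymphomas exceeded all Tcf1+/- thymi, by 1.06 ± 0.2 (adjusted p = 0.00407), the highest rise of a member in that comparison. The lowest tumor lay 0.08 above the highest control, and 3 of 4 tumor-free Tcf1-/- thymi also exceeded every control. Brca1, which acts earlier in the same repair, differed by 0.08 (adjusted p = 0.925).

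Uhrf1 brings the maintenance DNA methyltransferase Dnmt1 to newly copied DNA. It was at 11.56, 11.96 and 12.88 in lymphomas, at 9.39, 11.87, 11.84 and 11.46 in tumor-free Tcf1-/- thymi, and at 11.53, 11.42, 11.44, 11.48 and 11.4 in Tcf1+/- thymi. Lymphomas exceeded the tightly grouped controls in every case, by 0.65 ± 0.21 (adjusted p = 0.0549). Dnmt1 was 0.74 higher (adjusted p = 0.161), and the chromatin assembly factor subunit Chaf1b 0.36 higher (adjusted p = 0.279).

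Among the 39 members with more than 1 probe set, all probe sets of a gene gave a difference of the same sign in 27 for lymphomas against tumor-free Tcf1-/- thymi, in 30 for lymphomas against Tcf1+/- thymi and in 19 for tumor-free Tcf1-/- thymi against Tcf1+/- thymi. By array set, 39 members were higher in lymphomas than in Tcf1+/- thymi both within the 4 arrays and within the others, and 7 were lower in both. The 7 were E2f2, Pcna, Rpa3, Rrm2, Ccne2, Pola1 and Pole2, the last pair by 0.34 or less.

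Other genes of the same process, which are not members, were listed beside them. Of 43 measured, 9 rose and 1 fell in lymphomas against Tcf1+/- thymi, 5 rose and 1 fell against tumor-free Tcf1-/- thymi, and 1 rose and 3 fell in tumor-free Tcf1-/- thymi against Tcf1+/- thymi, beside the background shares given above. Their median differences were 0.28, 0.49 and -0.07, and without Tcf1-/- mouse 1 the last pair were 0.1 and 0.2. The highest rises in lymphomas against Tcf1+/- thymi were those of Ung, which removes uracil from DNA (1.51 ± 0.32), and of Dscc1 (1.04 ± 0.28) and Chtf18 (0.96 ± 0.25) of the alternative clamp loader (adjusted p = 0.0076, 0.027 and 0.0232).

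The lowest differences of called genes in that comparison were -0.88 for Dck, 0.65 for Rnaseh2a and 0.7 for Wdhd1. Dck, the kinase that salvages deoxycytidine, averaged 12.11 ± 0.42 in lymphomas, 11.37 ± 0.24 in tumor-free Tcf1-/- thymi and 12.99 ± 0.25 in Tcf1+/- thymi (SD), lower in every Tcf1-/- sample than in every Tcf1+/- sample. The atypical E2F repressor E2f7 was 2.03 ± 0.28 lower (adjusted p = 0.0012) and the mismatch repair subunit Msh6 1.1 ± 0.25 lower (adjusted p = 0.0148) in tumor-free Tcf1-/- thymi than in Tcf1+/- thymi. Against tumor-free Tcf1-/- thymi, lymphomas were highest for Dscc1 (1.28), Chtf18 (1.2) and E2f7 (1.2), and lowest among called genes for Pold4 (-1.63), Dck (0.75) and Dtymk (1.06). Pold4, the small subunit of polymerase delta, was also the gene that rose in tumor-free Tcf1-/- thymi against Tcf1+/- thymi, by 1.42 ± 0.37 (adjusted p = 0.0276) while Pold1, Pold2 and Pold3 did not pass there.

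Of 34 mitosis and spindle genes, 1 rose and 0 fell in lymphomas against Tcf1+/- thymi (16 of 34 higher, median -0.08), beside 8.51% and 4.21% of all genes. Against tumor-free Tcf1-/- thymi 5 rose and 0 fell (33 of 34 higher, median 0.51), beside 6.34% and 8.35% of all genes. In tumor-free Tcf1-/- thymi against Tcf1+/- thymi 0 rose and 1 fell (0 of 34 higher, median -0.72), beside 10.1% and 4.7%. Without Tcf1-/- mouse 1, 3 rose and 0 fell in lymphomas against tumor-free Tcf1-/- thymi (17 of 34 higher, median 0.02), where 283 of 13755 genes rose and 731 fell. Without it, 0 rose and 3 fell in tumor-free Tcf1-/- thymi against Tcf1+/- thymi (10 of 34 higher, median -0.24), where 1316 genes rose and 576 fell. With all mice the members had medians of 0.43, 0.55 and -0.09. The difference between the lists was not tested.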

How the data were processed

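RNA from 17 thymi was hybridised to Affymetrix mouse arrays. The deposited values are log2 signals of 45101 probe sets, which the authors normalized and summarized by RMA. Of these, 34958 carried 1 gene symbol, 932 several and 9211 none, and 113 belonged to members. A gene was tested where 4 or more arrays had it above their 40th percentile, with limma 3.58.1 (R 4.3.3), comparing groups in pairs, with Benjamini-Hochberg adjustment over 13755 genes and a threshold of 0.05. No count or read depth exists, and the number of arrays limits precision. On simulated data with 200 changed genes, log2 changes of 1 were recovered in 46%, 55% and 51% of cases and changes of 2 in 88%, 90% and 88% (lymphomas against Tcf1-/-, lymphomas against Tcf1+/-, Tcf1-/- against Tcf1+/-). The real comparisons called more genes than that, 1749 to 2037, so recovery in them may differ. Members, gene lists and motif were chosen with earlier results of these data known. Values are given for the 3 highest and 3 lowest called members of a comparison and for the brightest member of each role. These are the values of each mouse for tumor-free Tcf1-/- and Tcf1+/- thymi, and the lowest, median and highest for lymphomas. Other replication genes are named for the 3 highest and 3 lowest called. Mice with the same number deviated together for lymphomas and Tcf1+/- (r = 0.246 to 0.625 in 5 pairs, closest to the own number in 2), so these numbers were used as a block there. The pairs of mice 1 (r = 0.625) and 2 (r = 0.617) were the 4 arrays that stood apart. Mouse number and array set thus overlap and cannot be told apart for those pairs. The labels give no basis for a pairing. Alternatives covered the filter, probe sets, scaling, fit, array sets, Y-linked signal, block and left-out mice.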

Additional observations from a re-analysis of the deposited data

Results flagged for a closer look

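In 162 groups of values (54 measures in 3 groups), 26 held a mouse whose gap to its nearest neighbour was too wide a share of the group's range by Dixon's test. Chance alone flags about 1 in 20 groups, and genes of 1 mouse are not independent of each other.

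Of the 26, 16 were low values of Tcf1-/- mouse 1. They were Gmnn at 9.28, Mcm3 at 9.66, Mcm6 at 11.54, Mcm7 at 11.94, Cdc45 at 6.94, Mcm10 at 7.2, Pold2 at 8.95, Rfc1 at 8.5, Rfc4 at 8.05, Lig1 at 9.45, Brca1 at 6.83, Brca2 at 6.78 and Uhrf1 at 9.39. The means of the members (-1.36), of the mitosis and spindle genes (-2.03) and of the other replication genes (-1.2) were flagged in the same mouse. In Tcf1-/- mouse 4, Ccne1 was low at 6.71, where the next mouse had 7.63.

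Lymphoma 5 was low for Cdt1 (11.69), Mcm2 (11.16), Pold2 (9.44) and Rfc5 (9.31), and lymphoma 4 was high for Gmnn (12.12), Mcm6 (13.41) and Gins3 (8.19). Among controls, Tcf1+/- mouse 1 was low for Pold2 (9.11) and Tcf1+/- mouse 2 for Pold3 (8.88), both on arrays that stood apart.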

How the results depend on the processing

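Over 19 calls of single members, no alternative turned a direction, and 366 of 514 refits kept the call. The mean of the members turned only for tumor-free Tcf1-/- thymi against Tcf1+/- thymi, where it was 0.18 without Tcf1-/- mouse 1 (left-out mice gave -0.33 to 0.18). For lymphomas against Tcf1+/- thymi it was 0.65 within the 4 arrays that stood apart.

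Members called for lymphomas against tumor-free Tcf1-/- thymi (4) were 8 in a fit of all 17 arrays (15.7%, against 19.2% of all genes). They were 1 with Y-linked signal as a covariate (1.96% against 2.81%), 0 with the replicate block (against 4.25%) and 1 on the same mice without it (1.96% against 6.91%). With a mouse left out they were 2 to 5 (3.92% to 9.8%, against 7.37% to 16% of all genes). Members called for lymphomas against Tcf1+/- thymi (13) were 7 with equal interquartile ranges (13.7%, against 10.1% of all genes). They were 15 with Y-linked signal as a covariate (29.4% against 8.16%). With the mean of all probe sets they were 10 (20% against 12.8%), and Prim1, Rfc1, Rfc4, Rpa2 and Gins2 lost their call. They were 4 after subtracting Abl1 (7.84% against 7.49%) and 7 in a fit of all 17 arrays (13.7% against 14.2%), so that in these 2 fits the share of members was near the background. They were 6 without the 4 arrays, 24 with the array set as a block, 30 within the 4 arrays, 8 with the replicate block and 5 on the same mice without it. With a mouse left out they were 5 to 19 (9.8% to 37.3%, against 8.56% to 14.2% of all genes). For tumor-free Tcf1-/- thymi against Tcf1+/- thymi (2) they were 4 after subtracting Abl1 (7.84%, against 11.3% of all genes) and 0 by the Mann-Whitney U test. With a mouse left out they were 2 to 5 (3.92% to 9.8%, against 10.1% to 14.8% of all genes). The unadjusted Mann-Whitney p was under 0.05 for 2960 genes. With 4 against 5 mice this test has a smallest possible p, which E2f2 and Ccne1 reached, since their groups did not overlap. Their adjusted p was 0.0917 (Mann-Whitney U), so no gene could pass by it. The 0 therefore does not show whether these calls depend on the choice of test.

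All genes called for lymphomas against tumor-free Tcf1-/- thymi (2020) were 1304 after subtracting Abl1, 387 with the Y-linked covariate, 584 with the replicate block, 951 on the same mice without it, and 1014 to 2203 with a mouse left out. For lymphomas against Tcf1+/- thymi (1749) they were 1030 after subtracting Abl1, 3753 with the array set as a block, 1122 with the Y-linked covariate, 686 on the mice of shared numbers without the block, 2872 within the 4 arrays, and 1177 to 1951 with a mouse left out. For tumor-free Tcf1-/- thymi against Tcf1+/- thymi (2037) they were 0 by the Mann-Whitney U test, 3418 with the array set as a block, 1257 with the replicate block, and 1394 to 2042 with a mouse left out. The cause was not tested, apart from the smaller number of mice in fits that leave some out.

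Same-numbered mice did not deviate together for lymphomas and tumor-free Tcf1-/- thymi (r = -0.189 to 0.091) or for tumor-free Tcf1-/- and Tcf1+/- thymi (-0.286 to 0.12), and the block changed no member call in the last comparison. Equal interquartile ranges moved the median of all genes to 0.21 and -0.14 in the comparisons with tumor-free Tcf1-/- thymi, and subtracting Abl1 moved the first to 0.2. The fits within the 4 arrays and on shared numbers without the block were chosen after seeing the data.

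Y-linked signal was present in 2 of 8 lymphomas, 4 of 4 tumor-free Tcf1-/- thymi and 4 of 5 Tcf1+/- thymi, so that the covariate rests on few mice. The groups are small, and log2 changes of 1 were recovered in 46% to 55% of cases in a simulation with 200 changed genes.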

Other observations

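Lymphoma 4 was the highest of the 17 arrays for 20 of 51 members, against 6.67% of all genes tested, and lymphoma 1 was so for 13 members, against 10.2%. Lymphoma 4 was highest for helicase and origin genes such as Mcm6, Cdc6 and Orc1, while lymphoma 1 was highest for Pold1, Lig1, Fen1 and Dnmt1. On the mean of the mitosis and spindle genes lymphoma 4 was highest (0.74) and lymphoma 1 lowest of the tumors (-0.37). Lymphoma 1 was measured on an array that stood apart. These counts were made after the values had been seen.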
